A study of Mus musculus with 9 samples.

Results

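The CCN matricellular proteins are secreted, cysteine-rich proteins that sit in the extracellular matrix and bind integrins, heparan sulphate proteoglycans and growth factors rather than building the matrix itself. The genes read here, Ccn1, Ccn2, Ccn3, Ccn4 and Ccn5, were formerly named Cyr61, Ctgf, Nov, Wisp1 and Wisp2. They were taken as every probe set whose platform annotation gives 1 of these symbols. Each gene had 1 probe set, so these genes held 5 of the 12422 probe sets that are not array controls, and were 5 of the 8251 genes named by a single symbol. All 5 probe sets passed the filter on dim signals, along with 7884 in all, and none of them passed through a single time alone, since each was above the filter level of 44.69 on all 9 arrays.

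The arrays profiled total RNA of OB-6, a mouse osteoblastic cell line, after 30 and 60 min of parathyroid hormone (PTH) and at its start, 0 min, the basal group. Every group had 3 arrays, lettered a, b and c. The sources used here give neither the dose nor the form of the hormone, nor how the cells were grown. A group kept without hormone for 30 or 60 min was not analysed here, so time in culture and hormone cannot be told apart. The labels do not tell separate cultures from repeat arrays, and p-values therefore measure the spread between arrays, which may be technical.

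PTH acts on osteoblasts through a G-protein-coupled receptor that raises cAMP and also engages calcium and protein kinase C signalling. CCN1 and CCN2 are known as immediate-early genes that growth factors, serum and stretch induce within minutes to hours, and as standard targets of the YAP and TAZ coactivators acting through TEAD factors. The members read here share an IGF-binding-protein-like module, a von Willebrand type C module and a thrombospondin type 1 module, and all of them but CCN5 end in a cystine-knot module. In bone, CCN1 and CCN2 are known to promote osteoblast differentiation and angiogenesis, CCN3 to hold osteoblast differentiation back, and CCN4 to respond to Wnt signalling.

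The osteoblastic identity was checked against 10 markers, of which 6 had a probe set with that symbol alone. Col1a1, Col1a2, Sparc, Alpl and Ibsp passed the filter. The probe set of Pth1r, the PTH receptor, did not, with an intensity of 15.7 ± 8.81 at 0 min (SD, n = 3). Of the markers of other cells, 0 of 4 chondrocyte, 0 of 5 endothelial, 2 of 4 adipocyte, 3 of 6 skeletal muscle and 5 of 7 haematopoietic and osteoclast genes with a probe set passed. In the last of these lists, Cd14 stood at 976 ± 81.7 and Ctsk at 599 ± 40.8 at 0 min. Both were brighter than the osteoblast markers Alpl (234) and Ibsp (117), and dimmer than Sparc, Col1a1 and Col1a2 (3389 to 5386). Cd68, Csf1r and Acp5 passed at lower means of 139, 82.95 and 41.9. The leucocyte marker Ptprc and Itgam did not pass, at 5.87 ± 3.48 and 5.73 ± 2.74. Array b of 60 min correlated least with the rest (median r 0.938, where the others had 0.954 to 0.967). It lay at one end, lowest or highest, of the 3 arrays of 60 min for 82.4% of tested probe sets, and for 5 of 5 CCN probe sets. Any 1 of 3 arrays is more likely to lie at an end than in the middle. The ratio of 3' to 5' control signals, a sign of RNA quality, was 0.341 to 0.809 for Actb at 0 min, 0.302 to 0.657 at 30 min and 0.563 to 0.874 at 60 min, and 0.702 to 0.859, 0.666 to 0.818 and 0.719 to 0.783 for Gapdh at these times. The summed intensity of the osteoblast markers was 12424 to 13848 at 0 min, 13377 to 13681 at 30 min and 14481 to 17115 at 60 min. That of the skeletal muscle markers was 211 to 318, 346 to 383 and 293 to 420 at these times, and that of the dim endothelial markers 38.4 to 52.1, 45.7 to 80.7 and 86.8 to 107. The part of RNA quality and of these markers in the results was not tested.

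Ccn1 and Ccn2 rose within 30 min of PTH and were still above the start at 60 min, whereas no change of Ccn3, Ccn4 or Ccn5 passed the threshold at either time. The threshold throughout was an adjusted p under 0.05 in limma's moderated test, adjusted over all 7884 probe sets. Fold changes are on the log2(intensity + 11.8) scale, which slightly understates the change of dim probe sets. In such bulk RNA, a change in RNA per cell and a change in the share of cells cannot be told apart. At 30 min 2 of 5 CCN probe sets were higher and 0 lower, where 0.482% of all tested probe sets were called higher and 0.457% lower (0.939% in either direction). At 60 min 2 of 5 were higher and 0 lower, against 4.35% and 8.73% (13.1% in either direction). The median log2 fold change of the 5 members was -0.07 at 30 min and 0.34 at 60 min, against 0.05 and 0.03 over all tested probe sets.

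**Figure D1:**
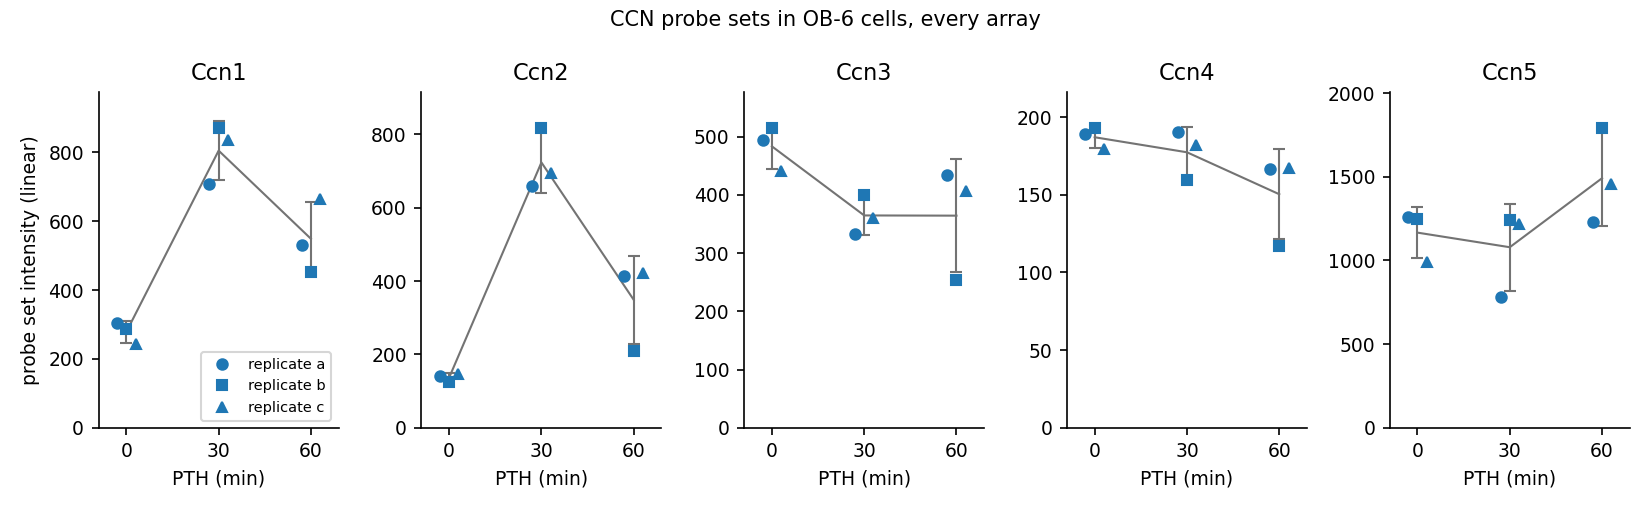
Linear intensity of the 5 CCN probe sets on each of the 9 arrays against time in PTH (min), with a symbol for each replicate letter and the mean ± SD of the 3 arrays as a grey line with bars. The 30 min points of Ccn1 (707 to 871) and Ccn2 (659 to 817) all lie above their 0 min and 60 min points, and 60 min replicate b is the lowest 60 min point for Ccn1 to Ccn4 and the highest for Ccn5.

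Ccn2 encodes the connective tissue growth factor, a secreted adaptor that binds TGF-beta, BMPs and integrins. Its intensity was 140, 124 and 146 on replicates a, b and c at 0 min, 659, 817 and 693 at 30 min, and 414, 210 and 422 at 60 min. No array of either PTH time overlapped with those of 0 min, and the 30 min arrays all lay above the 60 min ones. At 30 min it averaged 723 ± 83.1, against 137 ± 11.7 at 0 min (SD, n = 3 each), a 4.94-fold rise with a 95% confidence interval of 3.47 to 7.02 and a limma adjusted p of 0.00119. This was the change that ranked 4 from the top among 7884 probe sets. At 60 min the mean was 349 ± 120, a 2.33-fold rise over 0 min (95% confidence interval 1.64 to 3.31, limma adjusted p = 0.0132), ranked 15 from the top. The 60 min call was lost without 0 min replicate a (log2 fold change 1.24, limma adjusted p = 0.06) or 0 min replicate b (1.15, 0.0616). In these fits the calls over all tested probe sets fell from 1031 to 77 and 107. Without 60 min replicate b, whose 210 was 0.503 of the mean of the other two arrays, the log2 fold change was 1.54 against 1.22 with it.

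Ccn1 encodes a secreted ligand of integrins that drives adhesion, migration and vessel growth. Its intensity was 305, 287 and 244 on replicates a, b and c at 0 min, 707, 871 and 837 at 30 min, and 531, 453 and 663 at 60 min. The 3 times formed 3 ranges that did not overlap, with 30 min highest and 0 min lowest. The mean at 30 min was 805 ± 86.3, against 279 ± 31.4 at 0 min, a 2.81-fold rise (95% confidence interval 2.21 to 3.57, limma adjusted p = 0.00146) that ranked 12 from the top. At 60 min it was 549 ± 106, a 1.92-fold rise over 0 min (95% confidence interval 1.51 to 2.43, limma adjusted p = 0.00912). Both calls of Ccn1 remained with any 1 of the 9 arrays left out, with limma adjusted p up to 0.046 at 60 min. Arrays that did not overlap in the upward direction were found for 15.3% of tested probe sets at 30 min and 20% at 60 min.

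From 30 to 60 min the 2 risen genes came down without passing the threshold. At 60 min Ccn2 stood at 0.471 of its 30 min level (log2 difference -1.09, 95% confidence interval -1.59 to -0.58, limma adjusted p = 0.332). Ccn1 stood at 0.681 of it (log2 difference -0.55, 95% confidence interval -0.90 to -0.21, limma adjusted p = 0.526). In both genes each 60 min array lay below each 30 min array, as for 6.49% of tested probe sets (5.06% lay wholly higher). By limma 0 of 5 CCN probe sets changed between these times, where 0.0254% of all tested ones did, and 3 of 5 (Ccn1, Ccn2 and Ccn5) had an unadjusted p under 0.05, against 9.07% of all. The 0.0254% were 2 probe sets, of Fos and Dusp1, named here because the count is small. Over the 3 times together, limma's F test gave an adjusted p of 0.00238 for Ccn2 and 0.00317 for Ccn1, where 4.64% of probe sets passed.

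**Figure D2:**
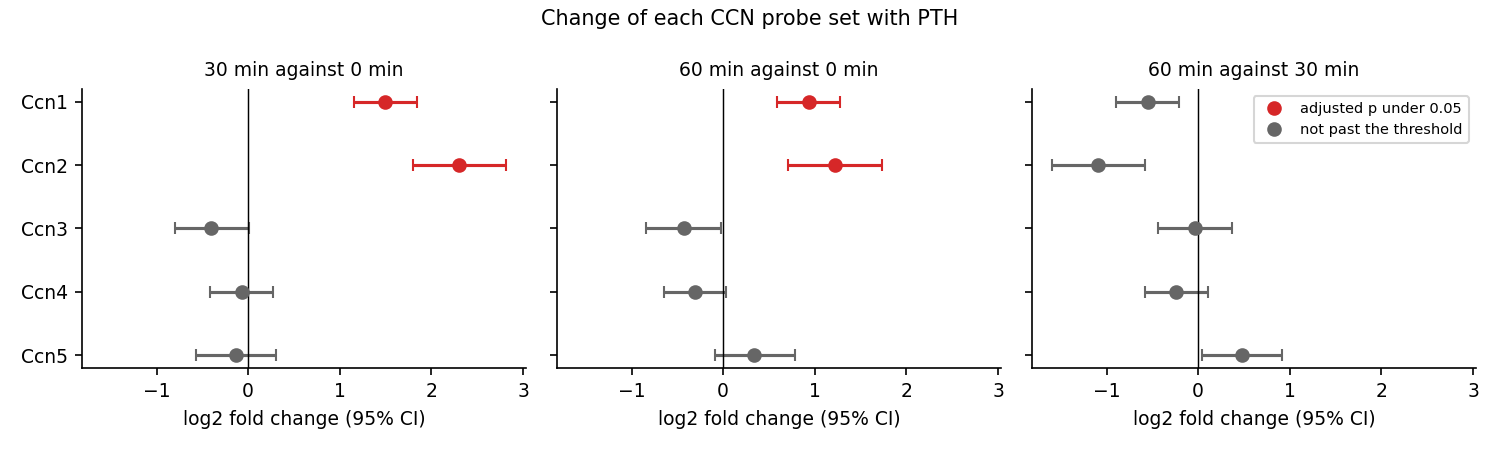
Log2 fold change with its 95% confidence interval from limma for each CCN probe set in the 3 comparisons, in red where the adjusted p was under 0.05. Ccn1 and Ccn2 are red in both comparisons with 0 min, at 1.49 and 2.30 at 30 min and 0.94 and 1.22 at 60 min, and no point is red for 60 against 30 min.

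Ccn3, whose product is a growth-restraining family member, had intensities of 495, 515 and 441 on replicates a, b and c at 0 min, 333, 401 and 360 at 30 min, and 434, 254 and 406 at 60 min. Both PTH times lay wholly below 0 min, but so did 15.3% of tested probe sets at 30 min and 20.7% at 60 min. Its log2 fold change was -0.40 at 30 min (95% confidence interval -0.80 to 0.01, limma adjusted p = 0.291) and -0.43 at 60 min (-0.84 to -0.02, limma adjusted p = 0.135). Without 60 min replicate b the 60 min value was -0.20. Between 30 and 60 min it differed by -0.03, a sign that turned to 0.01 after quantile normalization and to 0.02 after scaling to the 75th percentile.

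Ccn4, known as a Wnt-induced secreted protein, had 189, 193 and 179 on replicates a, b and c at 0 min, 191, 159 and 182 at 30 min, and 167, 117 and 167 at 60 min. The 0 and 30 min arrays overlapped, and the 60 min arrays lay below those of 0 min, as for 20.7% of tested probe sets. Its log2 fold change was -0.07 at 30 min (95% confidence interval -0.42 to 0.27, limma adjusted p = 0.814) and -0.31 at 60 min (-0.65 to 0.03, limma adjusted p = 0.191). Without 60 min replicate b its 60 min value was -0.15.

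Ccn5, the member that lacks the cystine-knot module, had 1259, 1250 and 989.8 on replicates a, b and c at 0 min, 779, 1243 and 1215 at 30 min, and 1228, 1792 and 1455 at 60 min. Its arrays overlapped between every pair of times. Its log2 fold change was -0.13 at 30 min (95% confidence interval -0.57 to 0.30, limma adjusted p = 0.735), which turned to 0.08 without 30 min replicate a, and 0.34 at 60 min (-0.09 to 0.78, limma adjusted p = 0.256). The intervals of Ccn3, Ccn4 and Ccn5 at 30 min end at folds of 1.01, 1.20 and 1.23, below the lower bounds of 3.47 for Ccn2 and 2.21 for Ccn1.

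The difference in course between members was tested directly. On each array the log2 value of one gene was subtracted from that of another, and the 1680 assignments of the 9 arrays to the 3 times gave an exact permutation p of the one-way F statistic, adjusted over the 10 pairs. The smallest p this test can give is 0.00357. The 6 pairs of Ccn1 or Ccn2 with Ccn3, Ccn4 or Ccn5 all passed, with adjusted exact p of 0.00893 to 0.0179. Ccn2 shifted by 2.70 relative to Ccn3 on the log2 scale at 30 min, and Ccn1 by 1.89. The 3 pairs among Ccn3, Ccn4 and Ccn5 did not pass, with an adjusted exact p of 0.111 each, which does not show that they moved alike. Ccn1 and Ccn2 differed by an exact permutation p of 0.0429 and an adjusted 0.0612: relative to Ccn2, Ccn1 shifted by -0.81 at 30 min and by -0.28 at 60 min. That pair's adjusted exact p was 0.0306 after quantile normalization and 0.0153 to 0.158 with 1 array left out, and it passed without 60 min replicate a or without 60 min replicate b.

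The RefSeq promoter table (build GRCm38.p6, 250 bases before the start site and 50 after) held Ccn1 among the 5 members. Its promoter is shown because the gene rose within 30 min, with those of Dusp1 and Btg2. These are 2 of the 4 genes with an entry among the 5 whose course was closest to Ccn1, described further on, and were chosen for print because they hold the full cAMP response element. They lie at chr3:145649936-145650235, chr17:26508423-26508722 and chr1:134079106-134079405, all on the minus strand, and capitals mark every match on either strand to a searched motif.
Ccn1: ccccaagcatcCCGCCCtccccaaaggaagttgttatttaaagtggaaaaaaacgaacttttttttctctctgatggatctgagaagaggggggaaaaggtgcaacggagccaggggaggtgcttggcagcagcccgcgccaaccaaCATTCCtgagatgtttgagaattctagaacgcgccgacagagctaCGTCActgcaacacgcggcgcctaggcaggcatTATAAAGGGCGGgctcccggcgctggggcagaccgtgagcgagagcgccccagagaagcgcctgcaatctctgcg
Dusp1: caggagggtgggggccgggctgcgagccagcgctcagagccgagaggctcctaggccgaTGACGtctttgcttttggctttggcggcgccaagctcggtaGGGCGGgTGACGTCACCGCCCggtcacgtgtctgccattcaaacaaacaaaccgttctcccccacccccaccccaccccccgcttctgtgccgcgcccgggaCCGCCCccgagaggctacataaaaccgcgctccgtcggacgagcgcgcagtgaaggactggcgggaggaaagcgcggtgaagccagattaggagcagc
Btg2: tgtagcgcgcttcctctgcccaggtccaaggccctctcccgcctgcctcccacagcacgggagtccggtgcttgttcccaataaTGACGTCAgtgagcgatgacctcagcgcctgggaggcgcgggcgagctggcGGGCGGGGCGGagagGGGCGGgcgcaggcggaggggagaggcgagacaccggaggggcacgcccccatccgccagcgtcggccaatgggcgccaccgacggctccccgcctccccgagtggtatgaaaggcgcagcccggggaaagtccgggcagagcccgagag

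Motifs searched were the cAMP response element TGACGTCA, its core TGACG (contained in the full element), the AP-1 element TGANTCA, the TEAD element GGAATG, the GC box GGGCGG, the TATA element TATAAA and, by its name, the CArG box of serum response factor. The Ccn1 promoter held the core on the opposite strand at positions -58 to -54 from the start, as do 20.9% of the 32544 promoters of that length, and the TEAD element on the opposite strand at -103 to -98 (14.6% of promoters). It also held the TATA element at -25 to -20 (13.6%), joined to a GC box at -19 to -14, and another GC box on the opposite strand at -239 to -234 (35.9%). The full cAMP response element, found in 1.8% of promoters, was matched in Dusp1 at -143 to -136 and in Btg2 at -166 to -159, and not in this Ccn1 window. The other two searched, Ier3 and Dusp6, whose courses were closer to Ccn1 than that of Btg2, did not hold it: Ier3 held a GC box at -96 to -91, and Dusp6 none of the motifs. Neither AP-1 (7.79% of promoters) nor CArG letters (1.64%) were matched in these 3 windows. A match is only a description of the letters.

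Genes were ranked by how closely their courses followed those of the risen pair. Likeness was the root mean square difference between 2 log2 profiles over the 9 arrays, each centred on its own mean. Closest to Ccn1 were Phlda1, a pleckstrin-homology protein (0.192), Dusp1, a MAP kinase phosphatase (0.274), the stress gene Ier3 (0.275), the ERK phosphatase Dusp6 (0.281) and the antiproliferative gene Btg2 (0.311), where the profile of Ccn1 itself had a root mean square of 0.638. Phlda1 averaged 109 ± 13.0 at 0 min, 337 ± 21.8 at 30 min and 239 ± 62.5 at 60 min, with log2 fold changes of 1.53 and 1.03 beside 1.49 and 0.94 for Ccn1. Closest to Ccn2 were the transcription factor Egr1 (0.343), Ier2 (0.360), Phlda1 (0.367), Dusp1 (0.380) and Ccn1 (0.397), against a root mean square of 0.981 for Ccn2. Ccn2 ranked 23 among the genes closest to Ccn1. These profiles share the same arrays and the same 0 min group.

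**Figure D3:**
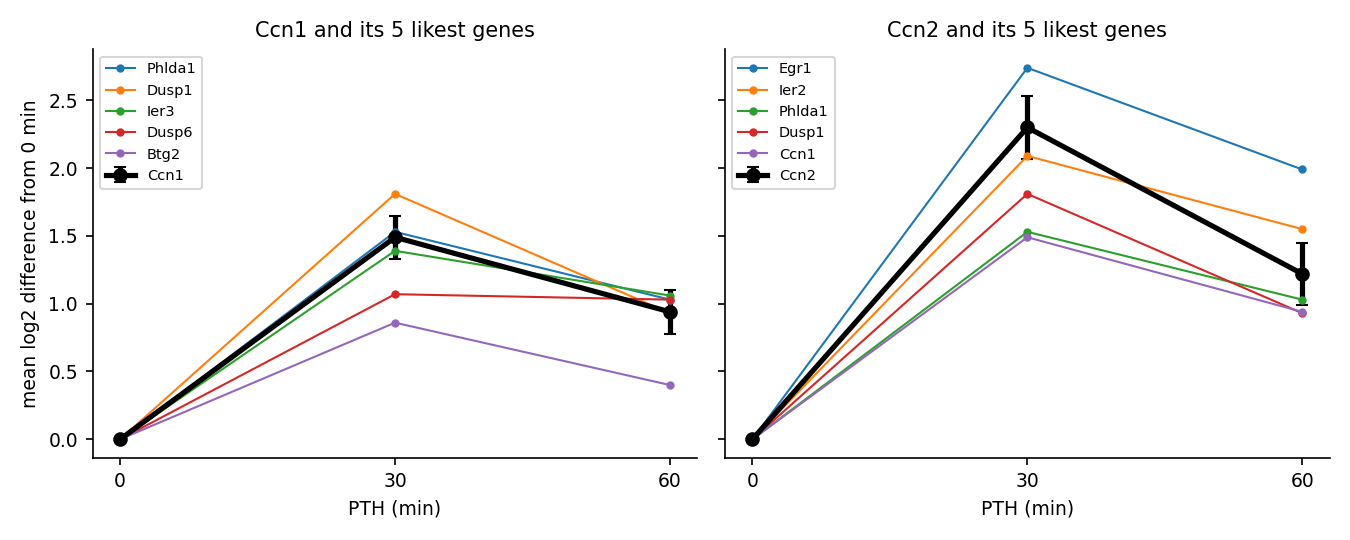
Mean log2 difference from 0 min against time in PTH (min) for Ccn1 and Ccn2 (black, with the limma standard error) and the 5 genes whose profiles over the 9 arrays were closest to each. All curves are highest at 30 min, at 1.49 for Ccn1 and 2.30 for Ccn2.

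Other genes around the CCN proteins were read from 5 lists. In none of them did a tested member change at 30 min (0 of 50 gene entries by limma, where 0.939% of all tested probe sets were called). An unadjusted p under 0.05 was reached by 10 of these entries, where 17.9% of all tested probe sets lay. The published YAP signature, from which Ccn1 and Ccn2 had been taken out, had 11 of 20 genes tested. Its median log2 fold change was -0.15 at 30 min and -0.12 at 60 min, and its values ran from -0.49 to 0.34 at 30 min. Its brightest tested members, Lats2, a kinase that restrains YAP, and Amotl2, an angiomotin, stood at 0.01 (SE 0.13) and 0.05 (SE 0.09) at 30 min, and Lats2 turned to -0.04 after cyclic loess. At 60 min 0 of 11 were higher and 2 lower, where 4.35% and 8.73% of all tested probe sets were. An unadjusted p under 0.05 was reached by 4 of 11, where 32.8% of all tested probe sets lay. Dock5, a Rac activator, averaged 199 ± 51.2 at 60 min, against 329 ± 9.61 at 0 min (log2 fold change -0.72, limma adjusted p = 0.0275). Asap1, an Arf GTPase-activating protein, averaged 1052 ± 125, against 1595 ± 64.1 (-0.60, limma adjusted p = 0.0184), while its dimmer probe set stood at -0.18 (0.366).

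In the Hippo pathway, the kinase cascade that holds YAP and TAZ in the cytoplasm, 0 of 8 tested genes were higher and 2 lower at 60 min, where 4.35% and 8.73% of all tested probe sets were. The 8 included no kinase. They were Mob1a, Mob1b, Nf2, Amot, the coactivator genes Yap1 and Wwtr1, and the TEAD factors Tead2 and Tead4. An unadjusted p under 0.05 was reached by 3 of 8 at 30 min and 6 of 8 at 60 min (17.9% and 32.8% of all), with a median of -0.27 at 30 min and -0.37 at 60 min. At 60 min Yap1 stood at -0.33 (limma adjusted p = 0.103), Wwtr1 at -0.51 (0.136) and Tead2, dim at 36.6 at 0 min, at 0.93 (0.099). The kinase adaptor Mob1b fell by 0.98 (limma adjusted p = 0.0366) and the angiomotin Amot by 0.41 (0.0397). At 30 min the brightest members, Amot and Mob1a, stood at -0.35 (SE 0.11) and -0.23 (SE 0.26). The brighter probe set of Mob1a was not called at 60 min (-0.77, limma adjusted p = 0.0706), while its dimmer one was (-0.91, 0.0456). The call of Amot at 60 min was lost after 75th percentile scaling, in a fit of the 2 groups alone, without a variance trend and without a filter, and that of Mob1b without a filter.

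Among receptors and binding partners of CCN proteins, 0 of 15 tested genes were higher and 1 lower at 60 min (4.35% and 8.73% of all), and 5 had an unadjusted p under 0.05 (32.8% of all), with medians of -0.15 at 30 min and -0.05 at 60 min. The one that fell was Tnfrsf11b, the decoy receptor osteoprotegerin, at 183 ± 67.4 at 60 min, against 432 ± 48.9 at 0 min. The integrin subunit Itgb1 and the endocytic receptor Lrp1, the brightest, stood at -0.16 (SE 0.13) and -0.09 (SE 0.14) at 30 min, and Lrp1 turned to 0.04 without 30 min replicate b. A dimmer probe set of Itgb1 stood at -0.41 at 30 min (limma adjusted p = 0.409) and -0.67 at 60 min (0.0941), where the brighter one stood at -0.17 (0.414). Of 10 tested other matricellular genes 0 rose and 1 fell at 60 min, a share near the 8.73% of all tested probe sets called lower. An unadjusted p under 0.05 was reached by 3 of 10 (32.8% of all). Postn, a periostin of bone surfaces, averaged 1708 ± 527 at 60 min, against 3900 ± 66.7 at 0 min (log2 fold change -1.23, limma adjusted p = 0.0179). At 30 min it stood at -0.98 (limma adjusted p = 0.101) and Sparc, the osteonectin gene, at -0.05 (SE 0.10). The medians of that list were -0.07 at 30 min and 0.12 at 60 min. Of 6 tested genes of other proteins with the IGF-binding module 0 changed at 60 min by limma (13.1% of all did), with 1 at an unadjusted p under 0.05 (32.8% of all). Igfbp6 stood at 0.16 (SE 0.16) at 30 min and 0.48 (SE 0.16) at 60 min and the protease Htra1 at 0.00 (SE 0.14) and 0.09 (SE 0.14), with medians of 0.12 and 0.16 for the list.

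Each of these 6 calls at 60 min was lost without any 1 of the 3 arrays of 0 min. The whole table had 77, 107 and 259 calls at 60 min without 0 min replicate a, b and c, against 1031 with every array. The calls of Mob1b and Amot were also lost when 30 min replicate c, 60 min replicate b or 60 min replicate c was left out. Over the whole table those fits called 692, 528 and 646. At 30 min single members passed in some of the fits with 1 array left out: 1 gene of the YAP signature, 2 Hippo genes and 1 matricellular gene without 60 min replicate b, and 1 Hippo gene and 1 matricellular gene without 30 min replicate a. Over all 7884 tested probe sets these fits called 557 and 307, against 74 with every array. A fit of the 0 and 30 min arrays alone called Postn (limma adjusted p = 0.04) and 1 gene of the YAP signature, with 389 calls over all tested probe sets. At 60 min counts also went up: without 60 min replicate a, 3 genes of the YAP signature, 4 Hippo genes, 5 receptors and partners, 2 matricellular genes and 1 IGF-binding-module gene (Igfbp6, limma adjusted p = 0.0395) were called. Over all 7884 tested probe sets that fit called 1584, against 1031 with every array. Without 30 min replicate a Igfbp6 was called too (limma adjusted p = 0.0498), in a fit with 1226 calls over all tested probe sets. The receptor count was 3 without 30 min replicate b, after 75th percentile scaling and with the filter at the 60th percentile, and 2 without 30 min replicate a and in a fit of the 0 and 60 min arrays alone. Over all tested probe sets these fits called, in that order, 1066, 1151, 967 (of 5325 tested), 1226 and 946.

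**Figure D4:**
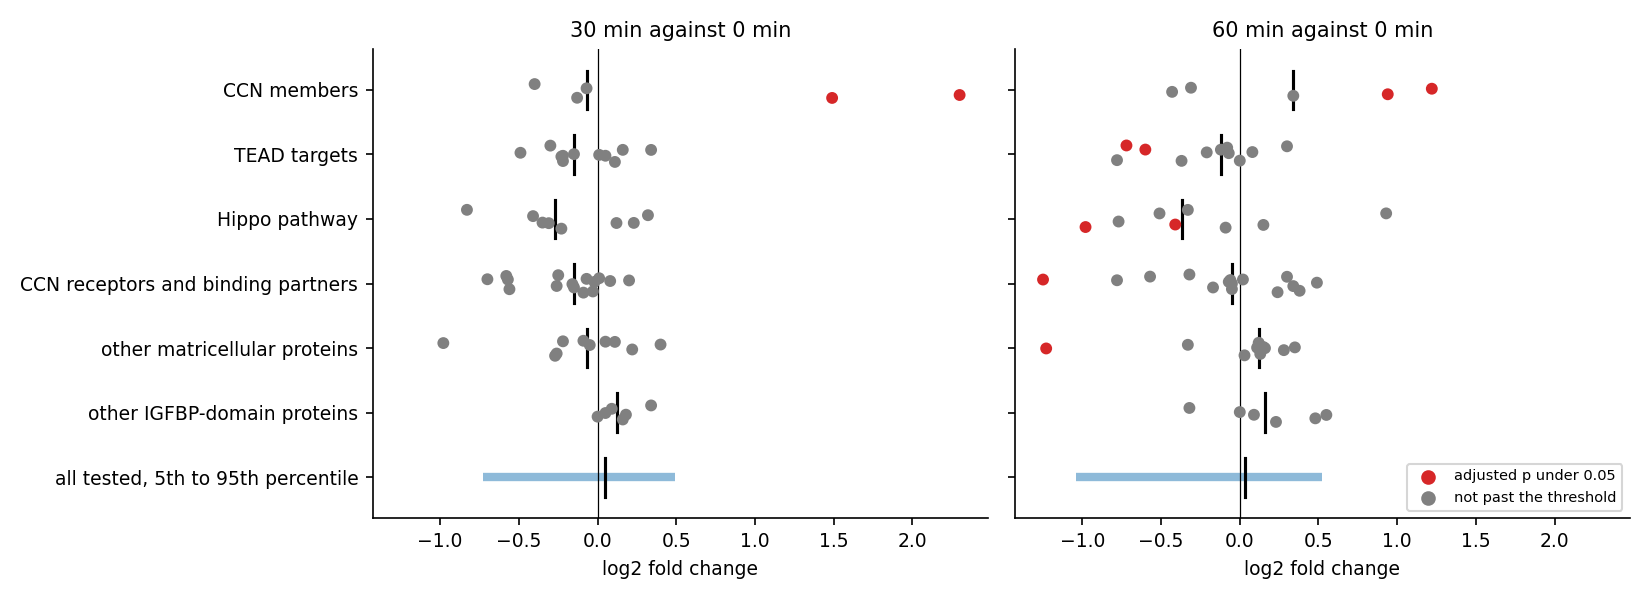
Log2 fold change at 30 min (left) and 60 min (right) against 0 min of each tested member of the CCN family and of 5 gene lists, in red where the limma adjusted p was under 0.05, with a black bar at each median. The blue bar spans the 5th to 95th percentile of all tested probe sets (-0.73 to 0.49 at 30 min and -1.04 to 0.52 at 60 min), and Ccn2 and Ccn1 are the rightmost points of the plotted lists in both panels.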

How the data were processed

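Total RNA of OB-6 cells at 0, 30 and 60 min of PTH was measured on 1-colour oligonucleotide arrays, 3 per time. The deposited table holds 1 linear intensity per probe set and array, made by the authors by steps the sources used here do not give. After trimming 2% off each end the array means were 250.1 to 250.2, so the deposited intensities were taken as already scaled. Genes were named from the platform annotation, in which 10833 probe sets had 1 symbol, 396 several and 1193 none. The Entrez identifiers of 10817 were in the RefSeq table of GRCm38.p6, which changed 0 symbols.

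Intensities became log2(intensity + 11.8), with the 20th percentile over the table as offset. Probe sets above 44.69, the 40th percentile, on at least 3 arrays were tested, without 66 control probe sets. One mean per time was fitted with limma 3.58.1 in R 4.3.3 (lmFit, eBayes with a trend, 6 residual degrees of freedom, prior 4.68) and p-values were Benjamini-Hochberg adjusted over the table. The fit was tested on simulated data. A gene with several probe sets was represented by the brightest. Genes named were all CCN probe sets, up to 4 called members per list and comparison with the largest change or else the 2 brightest, and the 5 closest profiles. The members and lists were chosen with earlier results of these data known, and 1 further list is not reported here. The number of arrays limits the precision. Replicate letters were checked for pairing: deviations of same-lettered arrays correlated at -0.128 to 0.304, with 2 of 9 pairs over 0.1. Both were between 30 and 60 min, at 0.304 for the a arrays and 0.251 for the b arrays. Array a of 30 min with b of 60 min gave -0.266, and b of 30 min with a of 60 min -0.264. Negative values are partly forced, since the deviations of the 3 arrays of a time sum to 0. Among unlike letters, c of 0 min with b of 60 min gave 0.179. The letters were not taken as pairs, which does not show that the 30 and 60 min arrays were unpaired. Other offsets, filters, scalings, a block and each array left out were tried. Figures used matplotlib 3.10.9 in Python 3.11.15.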

Additional observations from a re-analysis of the deposited data

How the results depend on the processing

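The calls of Ccn1 and Ccn2 at 30 min and of Ccn1 at 60 min held in all 19 alternatives, and that of Ccn2 at 60 min in 17, with Ccn3, Ccn4 and Ccn5 uncalled in every one. With 1 array left out, the log2 fold change of Ccn2 at 60 min was 1.05 to 1.54 and 1 to 2 CCN probe sets were called, and Ccn5 at 30 min was -0.25 to 0.08. Ccn3 for 60 against 30 min was -0.17 to 0.20 in those fits, 0.01 after quantile normalization and 0.02 after 75th percentile scaling. The pair Ccn1 and Ccn2 reached an adjusted exact p of 0.0306 after quantile normalization and 0.0153 to 0.158 with 1 array left out, and Ccn3 and Ccn5 0.0204 to 0.236 (past the threshold without 60 min replicate a). The tests of pairs under other settings were chosen after seeing the data. Among other named genes at 30 min, Lats2 turned to -0.04 after cyclic loess and -0.07 to 0.15 with 1 array left out, Amotl2 to 0.00 (cyclic loess), Lrp1 ran from -0.19 to 0.04, Sparc from -0.14 to 0.02 and Htra1 from -0.09 to 0.16 (0.01 after 75th percentile scaling). The cause of these turns was not tested.

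Counts over the whole table moved more. The split of 38 higher and 36 lower at 30 min became 52 and 90 after quantile normalization, 40 and 61 after 75th percentile scaling and 32 and 60 after cyclic loess, and that of 343 and 688 at 60 min became 499 and 652 after 75th percentile scaling. Against 74 at 30 min there were 39 calls without a filter, 40 without a variance trend, 142 after quantile normalization, 389 in a fit of the 2 groups alone and 16 to 557 with 1 array left out. Against 1031 at 60 min there were 652 without a filter and 77 to 1584 with 1 array left out. For 60 against 30 min, 2 calls became 1 in a fit of the 2 groups alone and 0 to 5 with 1 array left out. The F test over the 3 times gave 366 calls, 158 without a filter, 184 without a variance trend and 18 to 659 with 1 array left out. With the replicate letter as a block, the counts were 259 at 30 min and 1446 at 60 min. They were 1 for 60 against 30 min and 834 in the F test. Under the block Ccn1 and Ccn2 kept their calls, with limma adjusted p of 0.00345 and 0.00158 at 30 min and 0.00688 and 0.0075 at 60 min. Of list members, the block added calls of Postn at 30 min (-0.98, limma adjusted p = 0.0232) and of Igfbp6 at 60 min (0.48, 0.0273), and the receptor list had 3 calls at 60 min.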
